A study of Gallus gallus with 10 samples.

Results

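The genes of the proteasome were followed in the magnum, where the oviduct adds egg white, in broiler breeders (Gallus gallus) at 2 ages. They were taken by symbol, as every gene of the count table whose symbol begins with PSM, a letter from A to G and a digit, which gave 40 of 29558 genes. Of these, 39 encode the proteasome or its helpers: 13 subunits of the core particle, 16 of the regulatory particle, and 10 assembly chaperones, activators and an inhibitor. The remaining match, PSMC3IP, is named for a protein that binds PSMC3, acts in meiotic recombination and is no proteasome gene, so it is described apart and left out of every sum. The groups were 5 hens at 35 weeks of age, in peak lay, and 5 hens at 50 weeks, in declining lay, and age is the single factor the labels give. Each library came from whole magnum tissue of a separately numbered hen with an egg in the magnum, and no line, strain or treatment beyond "breeder" is stated. Sample titles name the shell gland as well, a later oviduct segment. All 15 listed magnum genes had counts and summed to between 41446 and 55142 CPM (counts scaled for library size) per library at 35 weeks and between 28022 and 41361 CPM at 50 weeks. The magnum sum thus did not overlap between the ages, though the nearest hens (41446 and 41361 CPM) were almost level. OVAL, with 3972 to 7293 counts per library, was its largest part and did overlap relative to library totals. Replicate 1 at 50 weeks (5509 of 205171 counts) lay above replicate 5 at 35 weeks (4638 of 188271). Not all 15 genes went the way of the sum. The part of the magnum sum in the age comparisons that follow was not tested. The 9 shell gland genes in the table summed to between 27.1 and 148 CPM, with CALB1, SLC26A9, SPP1 and HOXA11 among those at 0 in all 10 libraries.

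The proteasome is the barrel-shaped protease that degrades proteins tagged with ubiquitin, including misfolded secretory proteins that are returned from the endoplasmic reticulum. Its core particle stacks rings of alpha subunits (PSMA genes), which gate the entry, on rings of beta subunits (PSMB genes), some of which, PSMB5 and PSMB7 among them, carry the cutting sites. The regulatory particle caps the barrel: its ATPases (PSMC genes) unfold the substrate, and its non-ATPase subunits (PSMD genes) bind ubiquitin chains and remove them. These roles come from work in yeast and mammals and are given as background.

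Library totals lay between 188271 and 258195 counts (median 220938). A gene at 0 counts could still be present at up to 11.6 CPM in the deepest library and 15.9 CPM in the shallowest (3 counts, counting error alone). In a principal component analysis of 500 variable genes, whose leading axis held 28.8% of the variance, 35 week replicates 1 and 2 and 50 week replicate 4 scored 10.6, 17 and 11.1. The other 7 libraries scored between −7.07 and −1.81. Fold changes of the tested members, the summed, core and regulatory shares and the ratio of core to regulatory counts are given with and without these 3 libraries.

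Counts of the proteasome genes were concentrated in a handful of members. The 39 genes held 6087 counts over the 10 libraries, and PSMB7 alone held 54.4% of them. Only 5 of the 39 passed the filter on low counts: PSMB7, PSMA7, PSMC5, PSMG2 and PSME3, which together held 91.5% of the counts. A further 5 had a count in every library without passing (PSMD13, PSMD7, PSMA4, PSMD12 and PSMC3), and PSME1 and PSMG4 were at 0 in all of them. The median proteasome gene averaged 1.1 counts per library. Counts were not divided by transcript length, for which no table was at hand, so their order is not an order of expression levels. The sources used here do not state the strand setting of the counting, so reads of a gene and of an overlapping partner on the other strand may not have been told apart.

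**Figure D1:**
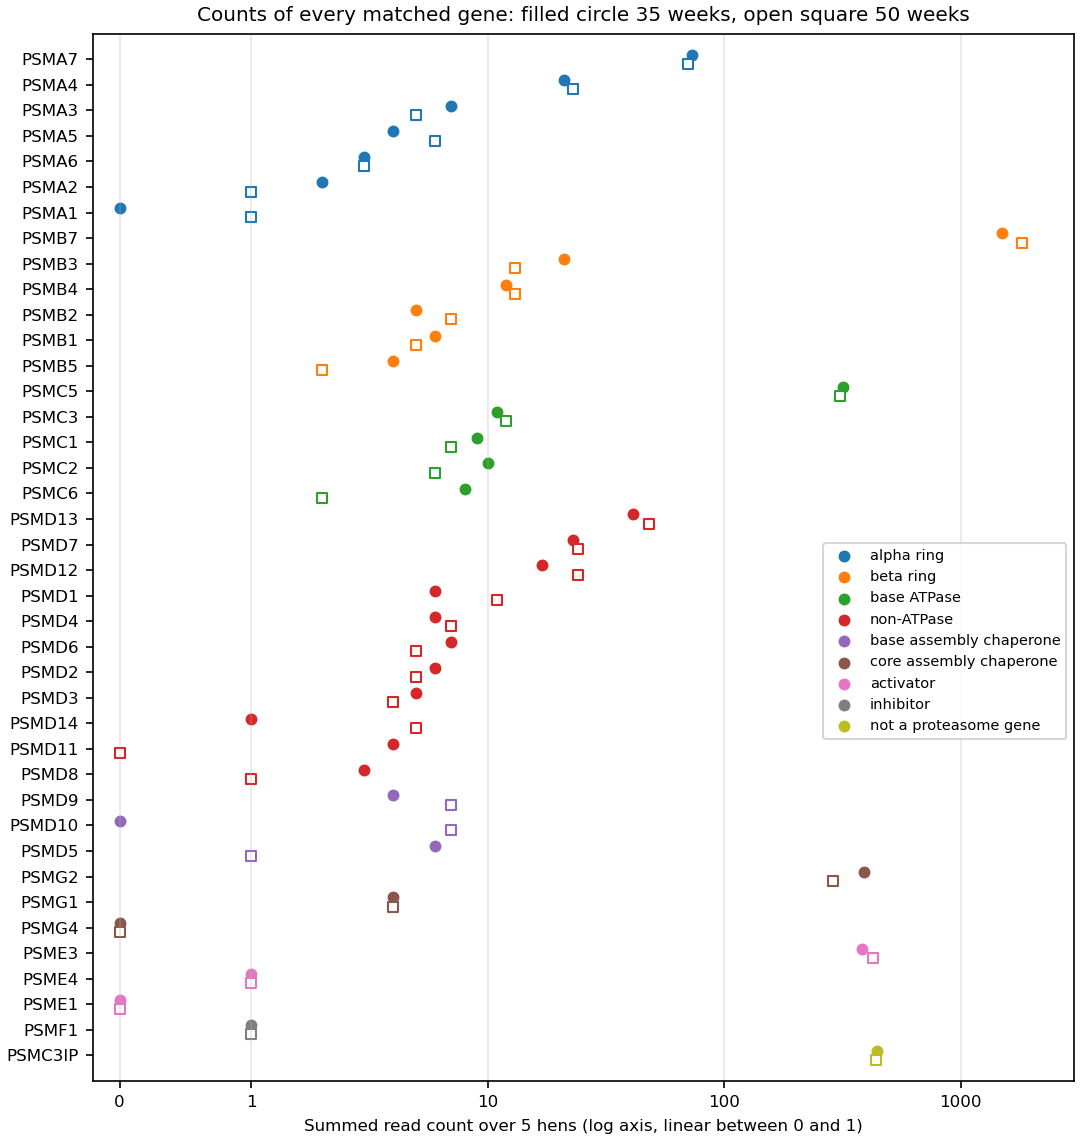
Summed read counts of the 40 matched genes over the 5 hens at 35 weeks (filled circles) and the 5 hens at 50 weeks (open squares), on a log axis that is linear between 0 and 1. Points are coloured by class. PSMB7, at 1499 and 1810 counts, stands apart from the other 12 core subunits, of which PSMA7 comes next at 73 and 70.

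The core particle was measured almost entirely through PSMB7, which held 91.5% of core counts. PSMB7 encodes a catalytic beta subunit that cuts after basic residues, and lies on chromosome 17 at 9964702 to 10002465 (GRCg7b), where its span overlaps that of NEK6. NEK6 had 0 to 8 counts per library. PSMB7 was at 1486, 1877, 1401, 1144 and 1277 CPM in replicates 1 to 5 at 35 weeks. It was at 1393, 1777, 1651, 1542 and 1476 CPM at 50 weeks. The highest and the lowest hens were both at 35 weeks, and the ages overlapped. The means were 1437 ± 278 CPM (SD, n = 5) and 1568 ± 150 CPM. The log2 fold change at 50 against 35 weeks was 0.12 (SE 0.15, 95% interval −0.20 to 0.45, Benjamini-Hochberg adjusted p = 0.837 in edgeR's quasi-likelihood test). This interval spans 0.872-fold to 1.36-fold. In whole tissue, fewer cells of a type and less RNA per cell cannot be told apart, here or in the genes that follow. Without the 3 libraries that stood apart, a setting chosen after seeing the data, it was 0.31 (−0.0042 to 0.62, edgeR adjusted p = 0.347).

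PSMA7, an alpha-ring subunit on chromosome 20 (8077433 to 8084584), was the other core gene with enough counts. At 35 weeks it was at 85.8, 47.7, 85.5, 72.7 and 64.1 CPM. At 50 weeks it was at 73.6, 58.6, 54.8, 77.3 and 38.9 CPM. Hens of both ages were mixed along this range, which corresponds to 9 to 20 counts per library. The log2 fold change was −0.22 (SE 0.28, 95% interval −0.83 to 0.38, edgeR adjusted p = 0.85). Without the 3 libraries that stood apart it was −0.40 (−1.11 to 0.32, edgeR adjusted p = 0.66). SS18L1, whose span overlaps PSMA7, had at most 2 counts in a library.

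The remaining 11 core subunits held 164 counts in all 10 libraries together. PSMA4, an alpha-ring subunit, had 3, 8, 3, 3 and 4 counts at 35 weeks and 6, 4, 4, 2 and 7 at 50 weeks. The non-catalytic beta subunits PSMB3, PSMB4, PSMB2 and PSMB1 had 34, 25, 12 and 11 counts in total. PSMB5, the other catalytic subunit in the table, had 6. The alpha-ring genes PSMA3, PSMA5, PSMA6, PSMA2 and PSMA1 had between 1 and 12 counts in total. PSMB6 is not analysed here.

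The regulatory particle was measured mainly through PSMC5, an ATPase of its base, which held 66.3% of the regulatory counts. The gene lies on chromosome 27 at 1352675 to 1356168. PSMC5 was at 267, 260, 428, 344 and 256 CPM at 35 weeks. It was at 245, 194, 337, 325 and 225 CPM at 50 weeks. The 3 lowest hens were at 50 weeks and the 2 highest at 35 weeks, with both ages among the other 5. Means were 311 ± 74.6 CPM (SD, n = 5) and 265 ± 62.8 CPM, a log2 fold change of −0.22 (SE 0.21, 95% interval −0.67 to 0.23, edgeR adjusted p = 0.79). Without the 3 libraries that stood apart it was −0.45 (−0.96 to 0.06, edgeR adjusted p = 0.401). Its neighbours FTSJ3 and SMARCD2, both within 1 kb, had 0 to 2 counts per library.

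The other 15 regulatory subunits held 318 counts. PSMD13, a subunit of the lid, had the most, with 7, 9, 9, 5 and 11 counts at 35 weeks and 8, 6, 8, 13 and 13 at 50 weeks. PSMD7, the lid subunit that pairs with the deubiquitinase PSMD14, had 9, 2, 2, 7 and 3 counts at 35 weeks and 4, 3, 6, 4 and 7 at 50 weeks. PSMD14 itself had 6 counts in all. PSMD12, another lid subunit, had 4, 3, 4, 4 and 2 counts and then 7, 1, 4, 3 and 9. The ATPase gene PSMC3 had 1, 3, 3, 2 and 2 counts and then 2, 2, 1, 5 and 2. In an edgeR fit without a filter on low counts, the unadjusted p of these 4 genes and PSMA4 lay between 0.52 and 0.981, where 5.86% of all genes in that fit were under 0.05. The ATPase genes PSMC1, PSMC2 and PSMC6 had 16, 16 and 10 counts in total. The ubiquitin receptor gene PSMD4 had 13, and PSMD2 and PSMD1, the large scaffold subunits of the base, had 11 and 17. The non-ATPase genes PSMD6, PSMD3, PSMD8 and PSMD11 had 12, 9, 4 and 4. Among the untested members, PSMC6 alone had ages that did not overlap in CPM, seen after the fact. It had 3, 2, 1, 1 and 1 counts at 35 weeks and 0, 1, 0, 1 and 0 at 50 weeks. The nearest hens were at 4.85 and 4.51 CPM, and the unadjusted p was 0.0784 in the edgeR fit without a filter. The share of such genes among all untested genes is not given here, so this is not read as a result. PSMC4 is not analysed here.

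PSMG2 was the one assembly chaperone with enough counts to be tested. PSMG2 and PSMG1 form a dimer that helps to build the alpha ring, and PSMG2 lies on chromosome 2 at 96620829 to 96627610. It was at 366, 750, 278, 208 and 214 CPM at 35 weeks. It was at 186, 189, 181, 444 and 221 CPM at 50 weeks. The 3 highest hens, of both ages, were the 3 whose libraries stood apart, and the other 7 lay between 181 and 278 CPM. Those libraries were set apart by the most variable of the tested genes, and PSMG2 was not held out of that choice. The match is therefore no independent result. The log2 fold change was −0.57 (SE 0.39, 95% interval −1.43 to 0.28, edgeR adjusted p = 0.667). Its size rested on single libraries. It was −0.11 without replicate 2 at 35 weeks, −0.90 without replicate 4 at 50 weeks (edgeR adjusted p = 0.312), and −0.26 (−0.71 to 0.19) without all 3.

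Several other genes, picked after their values were seen, were high in the same 3 libraries. COL6A2, which encodes a collagen chain, had 97, 124 and 226 counts there against 1 to 38 elsewhere. For ACTB, which encodes an actin, the counts were 93, 76 and 74 against 11 to 22. Of the fibroblast marker list, all 10 genes were in the table. They summed to 457, 549 and 902 CPM in the 3 libraries and to 36.6 to 275 CPM in the others, from 36.6 to 549 CPM at 35 weeks and from 43.8 to 902 CPM at 50 weeks. In the 3 libraries the sum was mostly COL6A2, since none of the other 9 fibroblast genes had more than 5 counts in a library. Together those 9 genes were not higher there, with 5, 5 and 7 counts in the 3 libraries and 3 to 20 in the other 7. The neighbouring gene CEP76, which lies 52 bases from PSMG2, had 31, 28 and 36 counts in the 3 libraries and 10 to 27 in the rest. Relative to library totals the 3 were not set apart in CEP76. Replicate 4 at 35 weeks (27 of 210604 counts) lay above replicate 2 at 35 weeks (28 of 234824). The part of these genes in the PSMG2 values was not tested. PSMG1, the dimer partner, had 8 counts in all 10 libraries. The chaperones of base assembly, PSMD9, PSMD5 and PSMD10, had 11, 7 and 7.

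**Figure D2:**
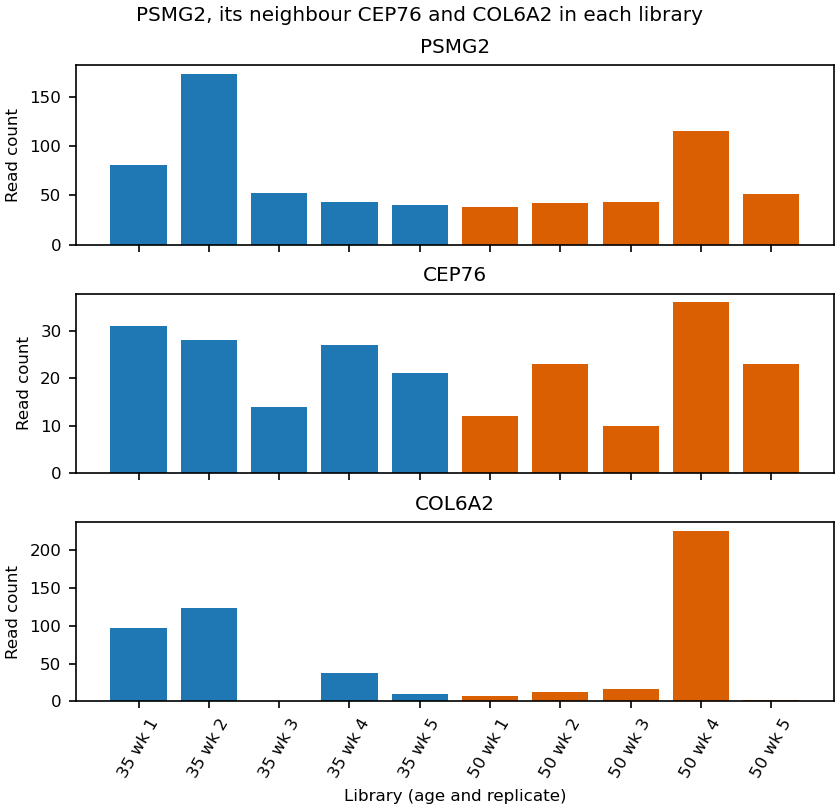
Read counts, not scaled for library size, of PSMG2, of its neighbour CEP76 and of the collagen gene COL6A2 in each library, at 35 weeks (blue) and 50 weeks (orange). PSMG2 had 81, 173 and 115 counts in the 3 libraries that stood apart (35 week replicates 1 and 2, 50 week replicate 4), and the other 7 had 38 to 52.

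PSME3 encodes an activator that opens the core particle in the nucleus without ATP or ubiquitin. On chromosome 27 at 5059150 to 5065856, it was at 258, 251, 348, 378 and 673 CPM at 35 weeks. It was at 343, 370, 371, 386 and 377 CPM at 50 weeks. All 5 older hens lay within the range of the younger hens, whose SD was 172 CPM against 15.9 CPM at 50 weeks. The SD at 35 weeks rested largely on replicate 5 (673 CPM). At 50 weeks the SD was below what counting error alone gives at this gene's mean count (a coefficient of variation of 11.1%). The 2 spreads are therefore not read as a difference between the ages. The means were 382 and 369 CPM, with a log2 fold change of −0.04 (SE 0.24, 95% interval −0.55 to 0.47, edgeR adjusted p = 0.975). The sign was not stable. The log2 fold change was 0.27 without replicate 5 at 35 weeks (edgeR adjusted p = 0.601). With that hen kept, it was 0.0023 with library totals, 0.0064 with limma and 0.04 with a replicate block. Without the 3 libraries that stood apart it was −0.35 (−0.82 to 0.13). BECN1, an autophagy gene 173 bases away, had 5 to 29 counts per library, with 12, 5 and 6 in the 3 that stood apart and at least 17 in the other 7. Its part in the PSME3 values was not tested. The other activator genes and the inhibitor gene were scarcely counted: PSME4 and PSMF1 had 2 counts each in total, and PSME1 had none.

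PSMC3IP, the match that is no proteasome gene, was better measured than most subunits. It was at 479, 503, 438, 339 and 369 CPM at 35 weeks and at 412, 370, 425, 278 and 428 CPM at 50 weeks, again with overlap. Its log2 fold change was −0.16 (SE 0.17, 95% interval −0.53 to 0.21, edgeR adjusted p = 0.814), and 0.10 without the 3 libraries that stood apart. Its annotated span overlaps MLX.

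**Figure D3:**
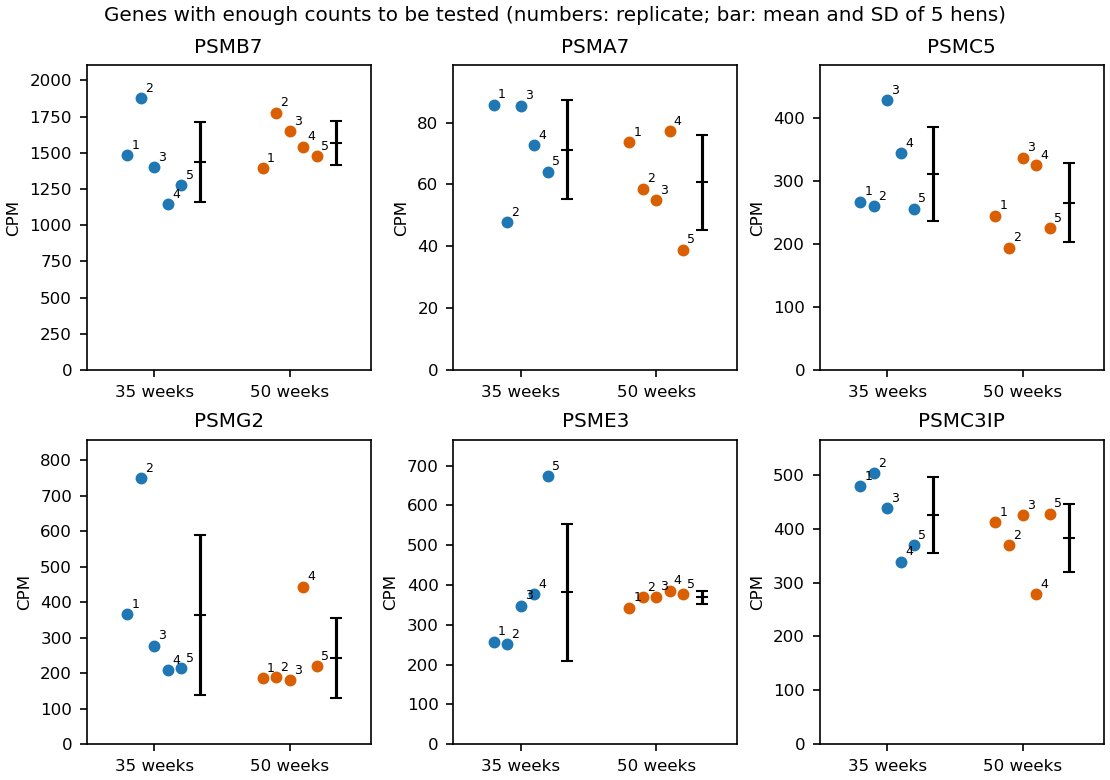
CPM in every hen of the 6 genes with enough counts to be tested, at 35 weeks (blue) and 50 weeks (orange), with replicate numbers and, beside each group, the mean and SD of 5 hens. The ages overlap in all 6, and the 2 highest PSMG2 values at 35 weeks and the highest at 50 weeks are the libraries that stood apart.

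The hens differed from each other by different amounts in these genes. Over the 10 libraries the coefficient of variation of PSMB7 was 14.7%, where counting error alone at its mean count gives 5.5%. For PSMG2 it was 59% against 12.1%, for PSME3 30.7% against 11.1%, and for PSMC5 24.1% against 12.6%. For PSMA7 it was 24%, no more than the 26.4% that counting alone gives.

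None of the 6 tested genes passed the test for a change with age. The count at an adjusted p under 0.05 was 0 by edgeR, by limma with sample weights and by DESeq2, which gave PSMA7 no adjusted p. Of all 1773 tested genes 0.0564% passed in edgeR's test. Limma called 12 of 1773 genes and DESeq2 20 of the 15792 it fitted. At an unadjusted p under 0.05 none of the 6 passed by edgeR (10.5% of all tested genes did), and the smallest unadjusted p was 0.17, for PSMG2 (edgeR). In none of the 6 were the ages separated without overlap, as was the case for 1.64% of all tested genes. Of the 5 proteasome genes, 4 had a negative log2 fold change, with a median of −0.22. Of all tested genes 49.1% were negative, with a median of 0.0065. The 95% intervals reached from 0.372-fold to 1.22-fold for PSMG2 and from 0.563-fold to 1.3-fold for PSMA7, so changes within them could not be told from none in these libraries. None of the 40 genes is among the 203 genes of the authors' deposited table, which are 0.687% of all genes in the count table.

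**Figure D4:**
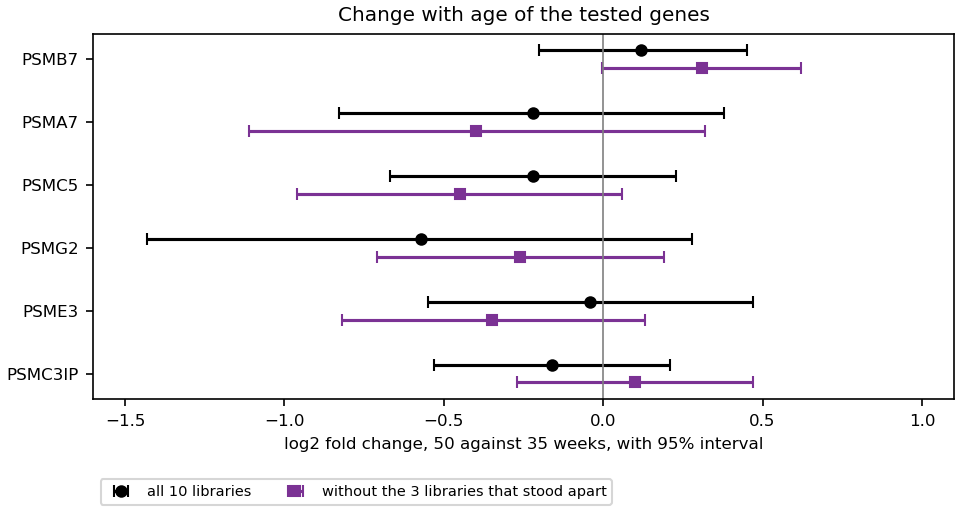
log2 fold change at 50 against 35 weeks of the 6 tested genes, with 95% intervals from edgeR's quasi-likelihood fit, for all 10 libraries (black circles) and without the 3 libraries that stood apart (purple squares). All 12 intervals include 0, and PSMB7 is the one proteasome gene with a positive value in both fits.

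Summed over the 39 proteasome genes, the mean share of a library's counts was close at both ages with all hens. It was 0.27%, 0.343%, 0.269%, 0.233% and 0.27% in replicates 1 to 5 at 35 weeks. It was 0.245%, 0.285%, 0.295%, 0.301% and 0.263% at 50 weeks. The means were 0.277% ± 0.0403 (SD, n = 5) and 0.278% ± 0.0235, and the highest and lowest hens were both at 35 weeks. The difference between the means was 0.000768 percentage points with all hens and 0.0145 without the 3 libraries that stood apart. Its sign was not stable. It was −0.00777 with totals multiplied by the TMM factor and −0.00403 with the counts of genes with a symbol as the total. Exact (Clopper-Pearson) 95% intervals for counting error ran from 0.213% to 0.255% for the lowest hen and from 0.32% to 0.368% for the highest. Since the members were chosen with results of these data known, the sums carry no test.

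The core sum was higher and the regulatory sum lower at 50 weeks, each by less than the larger of the SDs between hens. The core share averaged 0.157% ± 0.0287 (SD, n = 5) at 35 weeks and 0.173% ± 0.0183 at 50 weeks. The regulatory share averaged 0.0455% ± 0.00656 and 0.0411% ± 0.00767. The core difference came from PSMB7: without it the core share averaged 0.015% ± 0.00165 and 0.0132% ± 0.00206. Of the 13 core genes, 7 had the higher share at 35 weeks and 6 at 50 weeks. Most of them had few counts and the same split over all genes is not given here, so it is not read as a result. Without PSMC5 the regulatory share averaged 0.0149% ± 0.000972 and 0.0141% ± 0.00305. The ratio of core to regulatory counts was 3.85, 4.92, 2.75, 2.56 and 3.52 at 35 weeks. It was 3.91, 6.58, 3.93, 3.44 and 3.96 at 50 weeks. The means were 3.52 ± 0.946 and 4.36 ± 1.26, and replicate 2 at 50 weeks held the highest value. The difference between the means was 0.845 with all hens, 0.29 without that hen and 1.65 without the 3 libraries that stood apart. Without those 3 libraries the core share differed by 0.0344 percentage points in place of 0.016, and the regulatory share by −0.00891 in place of −0.00445.

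That ratio rests largely on PSMB7, with 91.5% of core counts, and on PSMC5, with 66.3% of regulatory counts. Without these 2 genes the ratios of the other 12 core to the other 15 regulatory subunits were 1.03, 1.08, 1.12, 0.875 and 0.926 at 35 weeks. At 50 weeks the ratios were 0.967, 1.55, 1.04, 0.833 and 0.575, from 34 against 22 counts in replicate 2 and 23 against 40 in replicate 5. Their means were 1.01 ± 0.102 (SD, n = 5) and 0.991 ± 0.356. The accessory genes, mostly PSMG2 and PSME3, held 0.0749% ± 0.0194 of counts at 35 weeks and 0.0641% ± 0.0119 at 50 weeks, with overlap.

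**Figure D5:**
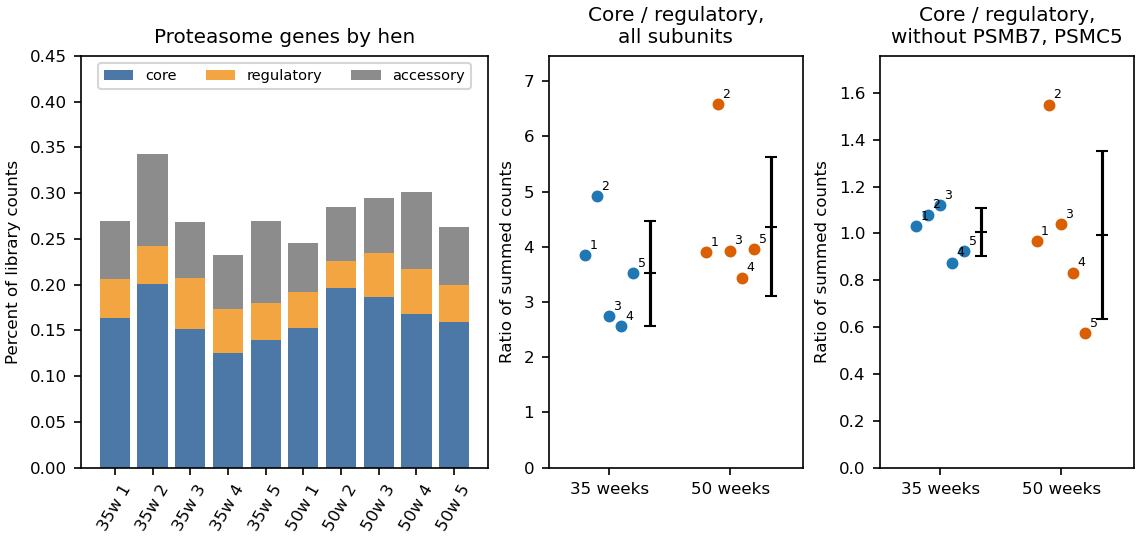
Left, the share of each library's counts in core, regulatory and accessory proteasome genes, stacked, by hen (35w and 50w, ages in weeks, with replicate number). Middle and right, the ratio of core to regulatory counts with all subunits and without PSMB7 and PSMC5, with the mean and SD of 5 hens; the means are 3.52 and 4.36 with all subunits and 1.01 and 0.991 without the pair.

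Most members sit close to another gene. Of the 39 matched to RefSeq's table of the same build, 36 overlapped another gene or lay within 1 kb of one, and PSMD12, PSMB2 and PSMG1 did not. In 35 pairs both genes had a row in the count table. The neighbour had more counts in 11 of them. The widest gaps were beside PSMD13, which averaged 8.9 counts against 269 for the sirtuin gene SIRT3 94 bases away, and beside PSMC2, which averaged 1.6 against 92.1 for the overlapping cochaperone gene DNAJC2. For PSMB7, PSMA7, PSMC5, PSMG2 and PSME3, each neighbour with a row had fewer counts than the member. These members had passed a filter on counts, so that outcome was largely fixed in advance. With the strand setting not stated, it cannot show which gene the reads came from.

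The rest of the ubiquitin pathway and autophagy, taken from lists of 200 genes by role (30 of them for autophagy), were also thinly counted. Of these, 175 were in the table and 14 had enough counts to be tested. None passed in edgeR's test after adjustment, and 1, SENP8, had an unadjusted p under 0.05, where 10.5% of all tested genes did. DESeq2 called SENP8 alone of the lists, among 20 of the 15792 genes it fitted. Limma with sample weights called 12 of 1773 genes and none of the lists. Without the 3 libraries that stood apart, edgeR called 43 of 1828 genes and none of the lists. SENP8, which matures and removes the ubiquitin-like NEDD8 that switches on cullin ligases, was at 1098, 1066, 888, 916 and 924 CPM at 35 weeks. It was at 726, 681, 741, 487 and 550 CPM at 50 weeks. The libraries that stood apart were its highest at 35 weeks (1098 and 1066 CPM) and its lowest at 50 weeks (487 CPM). All younger hens lay above all older hens. The magnum marker sum was likewise higher in all younger hens, though its nearest hens (41446 and 41361 CPM) were almost level and OVAL, its largest part, overlapped. Its part in the SENP8 values was not tested. Of all tested genes 1.64% were separated by age in this way or the other. The log2 fold change of SENP8 was −0.62 with all libraries (SE 0.15, edgeR adjusted p = 0.176). Its value without the 3 libraries that stood apart is not given here. The cullin gene CUL4B was at −0.52 (SE 0.33).

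The tested ubiquitin, ubiquitin-like and conjugating enzyme genes had log2 fold changes between 0.03 and 0.06. RPS27A, which encodes ubiquitin fused to a ribosomal protein, averaged 129 ± 48.2 CPM (SD, n = 5) and 133 ± 16.2 CPM, and SUMO2, a ubiquitin-like modifier, averaged 68.8 ± 15.6 and 70 ± 16.9 CPM. The conjugating enzyme gene UBE2L3 averaged 59.7 ± 24.3 and 60.1 ± 9.92 CPM. RNF139, a ligase of the endoplasmic reticulum membrane, was at a log2 fold change of 0.28 (SE 0.25), and none of the 18 assembly factors and regulators in the table could be tested. The 5 tested deubiquitinase genes were split, with 2 negative and 3 positive, among them BAP1 at 0.45 (SE 0.26) and USP4 at 0.17 (SE 0.16). In autophagy, the other route of protein clearance, GABARAPL2 was at 0.08 (SE 0.23) and BECN1 at 0.09 (SE 0.47). Over the 14 genes the median log2 fold change was 0.07.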

How the data were processed

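Messenger RNA libraries of whole magnum were made with a directional kit, per the labels' protocols. Trimmomatic, HISAT2, Cufflinks, DESeq2 and the build GRCg7b are named, without roles, in the submitters' processing notes. The sources used here do not state the counter, its strand setting or the annotation release. For each Ensembl gene the authors deposited unnormalized counts. Their deposited table of changed genes holds the authors' log2 fold changes and adjusted p-values, and served here only to look up which genes it lists.

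Libraries were grouped by labelled age. The whole table was fitted by edgeR 4.0.16 under R 4.3.3 (filterByExpr, minimum count of 10, TMM, robust glmQLFit, glmQLFTest, two-sided), adjusted over 1773 genes, at a threshold of 0.05. The fit was tested on simulated data in which all genes had the same biological variation. That test did not cover genes that varied more, such as PSMG2. CPM used library totals multiplied by the TMM factor, while shares and summed marker CPM used plain totals. Libraries of 1 age differed by more than sampling noise (chi-square at least 2.66 per degree of freedom). Of the members, 39 were matched to RefSeq genes by gene ID or symbol.

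Members and lists were chosen with earlier results of these data known. The text names every tested member, every member with a count in all libraries and the 2 smallest p per pathway list, except for a gene that is not reported here. Other members, chosen after their values were seen, are named with their totals, and with counts per hen for PSMC6, PSMD10 and PSMD11. Alternatives were RLE factors, library totals, looser filters, DESeq2 1.42.0, limma 3.58.1 with sample weights, a replicate block and leaving out libraries.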

Additional observations from a re-analysis of the deposited data

Results flagged for a closer look

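Of 26 groups of 5 hens examined for a hen far from the others, chance alone would set apart about 1 in 20. In the 50 week group PSMG2 was at 444 CPM in replicate 4 and between 181 and 221 CPM in the other 4 hens. The ratio of core to regulatory counts was 6.58 in replicate 2 at 50 weeks and between 3.44 and 3.96 in the other 4.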

How the results depend on the processing

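No proteasome gene passed an adjusted p under 0.05 in any of 18 alternative fits. The number of all genes called moved from 1 of 1773 to 36 of 15792 without a filter on low counts. It was 40 of 7900 with a filter at 1 CPM in 5 libraries and 20 of 15792 with DESeq2. Limma called 12 of 1773 and the replicate block 2 of 1773. Without the 3 libraries that stood apart the number was 43 of 1828. On leaving out single libraries it lay between 1 and 12. Matched genes with an unadjusted p under 0.05 in edgeR numbered 3 of 38 without a filter, where 5.86% of all genes were under it. With the CPM filter it was 1 of 30 (PSMG2), and on leaving out single libraries 0 to 1 (PSMG2, without replicate 4 at 50 weeks). For these last fits the share of all genes under 0.05 is not given here, so their counts are not read as a result. The 1 pathway gene called by DESeq2 was SENP8. The fold change of PSME3 turned to 0.0023 with library totals, 0.0064 with limma, 0.04 with the replicate block and 0.27 without replicate 5 at 35 weeks (−0.15 to 0.27 over single libraries left out). That of PSMC3IP turned to 0.10 without the 3 libraries. The cause was not tested. The other 103 of 108 refitted fold changes kept their direction and none passed the threshold, with edgeR, DESeq2 and limma adjusted p from 0.312 up (DESeq2 gave none for PSMA7). Differences in share and in ratio moved by less than the larger of the 2 SDs between hens. The main differences were themselves smaller than that SD, so this limit cannot tell a stable difference from none. Without PSMB7 and PSMC5 the summed share difference was −0.0134 in place of 0.000768 percentage points. The core share difference was −0.00183 in place of 0.016, and that of the ratio −0.014 in place of 0.845. The regulatory share difference stayed negative, at −0.000823. Without the 3 libraries that stood apart the differences were 0.0145 for the summed share, 0.0344 for the core share and −0.00891 for the regulatory share. For the ratio the difference was then 1.65. With totals multiplied by the TMM factor the summed share difference was −0.00777, and with the counts of genes with a symbol as the total it was −0.00403. The summed share lay between −0.0102 and 0.0173 percentage points on leaving out single libraries. Under DESeq2, fitted over 15792 genes, the median of all genes shifted by −0.115. The labels state no pairing of hens between the ages. Same-numbered libraries of the 2 ages did not deviate together (correlations −0.115 to 0.0979), and the fit with the replicate block called no matched gene. At this depth 34 proteasome genes had too few counts for the test.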

Other observations

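Without a filter on low counts, 3 of the 37 proteasome genes with a count had an unadjusted p under 0.05 by edgeR (5.86% of all 15792 genes did), and none passed after adjustment (smallest adjusted p = 0.57). Besides PSMG2 they were PSMD10 and PSMD11, picked here after their values were seen. PSMD10, a chaperone of base assembly known in mammals as gankyrin, had 0 counts in all 5 hens at 35 weeks and 0, 4, 1, 1 and 1 counts at 50 weeks. PSMD11, a lid subunit, had 1, 2, 1, 0 and 0 counts at 35 weeks and 0 in all hens at 50 weeks. These counts are too low for a fold change.

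Of the pathway lists, the authors' deposited table holds 4 of the 175 in the count table, where it holds 0.687% of all genes there. These 4, named after their values were seen, were too thinly counted for the main edgeR test here. The edgeR fit without a filter on low counts called none of the lists, and DESeq2 called only SENP8. The unfolding ATPase gene VCP had 2 to 5 counts per hen at 35 weeks and 0 to 2 at 50 weeks. The lectin gene ERLEC1, which recognises misfolded glycoproteins for disposal, had 2 to 14 and 2 to 4. ERLIN2, a membrane scaffold in the same disposal route, had 1 to 10 and 0 to 2, and the cochaperone gene SGTA had 1 to 3 and 0 to 1.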
